A study of Homo sapiens with 9 samples.

Results

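The replication-dependent histone genes were examined in U2-OS, an osteosarcoma line of human origin that is long established in culture. They were the genes of the H1, H2A, H2B, H3 and H4 families that carry the symbols of the clustered, replication-dependent genes and are not pseudogenes. GENCODE release 44 holds 69 such symbols, and 67 of them (6 H1, 15 H2A, 18 H2B, 13 H3 and 15 H4) were matched among the 60609 identifiers of the count tables. The other 2, H2AC18 and H2AC19, were not analysed here. Of the 67 genes, 55 lie on chromosome 6, 11 on chromosome 1 and 1, H4C16, on chromosome 12.

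Gene expression was measured by sequencing of RNA from which ribosomal RNA had been removed, in 9 libraries. Clone A1 and clone A4, each a single clone of U2-OS that overexpresses the cap-binding protein NCBP2, gave 3 libraries each (replicates A, B and C). The vector group was 3 further clones with the empty vector, 1 library each, so that vector replicates A, B and C are vector clones 2, 3 and 1. All groups share the cell line and the growth medium, and the labels name neither the promoter of the construct nor a treatment. The question of the study was which RNAs differ when NCBP2 is raised. The labels do not say whether the 3 libraries of a clone were separate cultures, so spread within clones A1 and A4 may be technical only. Spread within vector lies between clones. The p-values mix these kinds of spread, because all groups share 1 estimate of it. A difference between 1 clone and the vector clones cannot be told apart from a difference that this clone carried for another reason.

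As background, core histones H2A, H2B, H3 and H4 form the nucleosome and H1 binds the DNA between nucleosomes. Their clustered genes are transcribed in S phase, when new DNA needs new histones. Most of their mRNAs end in a conserved stem-loop, bound by SLBP, instead of a poly(A) tail, and the nuclear cap-binding complex to which NCBP2 belongs takes part in making that end. RNA prepared with ribosomal depletion retains such mRNAs, whereas poly(A) selection does not. The labels name polyadenylated RNA as the molecule but a ribosomal depletion kit in the protocol.

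The stem-loop was searched for because it marks this gene family. The search took any stem of 6 base pairs starting with GG around a loop of 4 bases starting with TT. It was present within 200 bases after the stop codon in 62 of the 67 genes (92.5%). Among all 19919 protein-coding genes, these histone genes included, it was present in 71 (0.36%). In the histone genes it took 5 letter forms. The forms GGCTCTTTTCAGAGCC (38 genes), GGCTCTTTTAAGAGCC (9) and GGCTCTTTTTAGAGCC (1, H2AC20) were found in H1, H2A, H2B and H3 genes. The forms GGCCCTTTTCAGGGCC (10) and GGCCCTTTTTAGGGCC (4) were found in the H4 genes; these forms were found in 14 of 15 H4 genes and in no other class. No such stem-loop was found in this window in H2AC11, H2AC15, H2BC10, H3C6 and H4C13. One gene for each form, and both genes that differed between the clones below, are shown on the strand of the gene with the 16-base stem-loop in capitals and 5 bases on either side (GRCh38). They lie at chr6:26217412-26217437 (H2AC8, plus strand), chr6:26216213-26216238 (H2BC8, minus), chr6:26017032-26017057 (H1-1, minus), chr1:149887386-149887411 (H2AC20, plus), chr6:26104312-26104337 (H4C3, plus) and chr6:27139649-27139674 (H4C9, plus).
H2AC8: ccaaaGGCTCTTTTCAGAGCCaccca
H2BC8: tcaaaGGCTCTTTTCAGAGCCactca
H1-1: ccaacGGCTCTTTTAAGAGCCaccta
H2AC20: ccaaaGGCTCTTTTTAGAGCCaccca
H4C3: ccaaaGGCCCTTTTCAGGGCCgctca
H4C9: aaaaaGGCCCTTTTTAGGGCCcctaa

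Promoters, from 250 bases before to 50 bases after the start, were taken from RefSeq (GRCh38.p14) for the 62 genes with an entry. H2AC7 and H3C4 share 1 such window. The TATA box was searched as TATAAA and the CCAAT box as CCAAT, each on both strands, and the letters of the 2 do not overlap. TATAAA was present in 40 of 62 promoters (64.5%) and in 11.5% of all 35116 promoters. CCAAT was present in 52 of 62 (83.9%) against 34.6%, and both in 34 (54.8%) against 4.6%. In 32 promoters TATAAA lay on the strand of the gene 32 to 27 bases before the start, at a median of 31. CCAAT was found in all promoters of H1 (6), H2A (14), H2B (18) and H3 (11) genes but in 3 of 13 promoters of H4 genes. H2A and H2B promoters held a median of 3 CCAAT boxes, and many H2A and H2B genes share 1 short stretch between them, so that the boxes of the second gene are counted on the opposite strand.

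**Figure D1:**
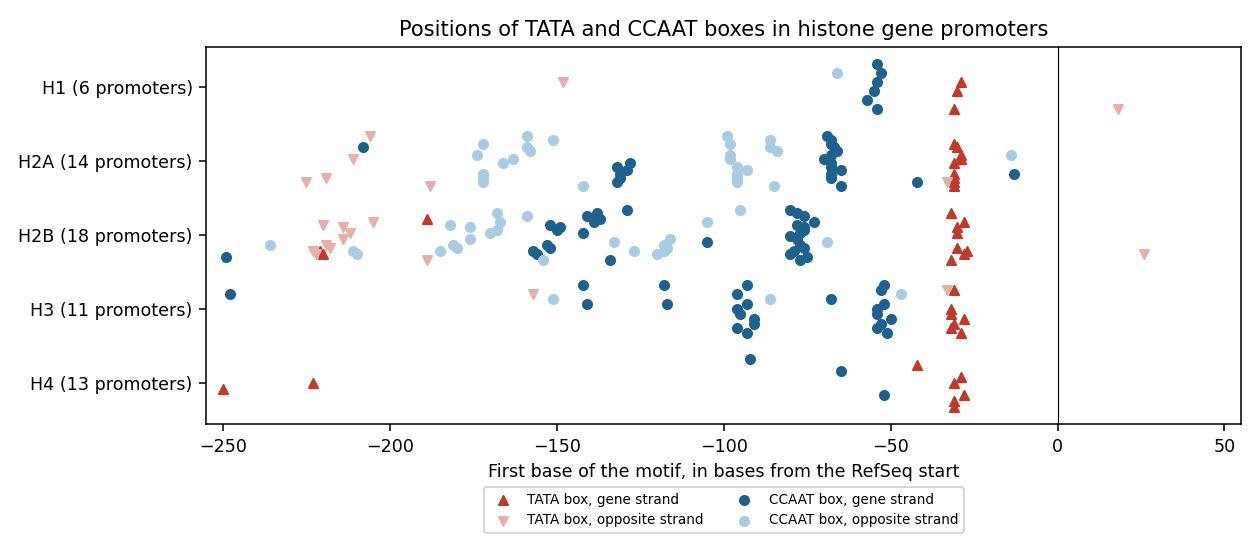
Positions of TATA boxes (triangles) and CCAAT boxes (circles) in the promoters of the 5 histone classes, with the distance of the first base from the RefSeq start in bases on the horizontal axis and 1 height per gene within its class; dark symbols lie on the strand of the gene and pale symbols on the opposite strand. TATA boxes on the gene strand gather 32 to 27 bases before the start in every class, and H4 promoters hold few CCAAT boxes.

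The promoter between H2BC8 and H2AC8 is shown because these genes differed between the clones, that of H3C6 because it is the next gene along the chromosome, and that of H1-3 because it was counted in no library. TATAAA and CCAAT, or their complements TTTATA and ATTGG, are in capitals. The H2AC8 window is chr6:26216671-26216970 on the plus strand, and its TTTATA is the TATA box of H2BC8, which reads on the minus strand. The H3C6 window is chr6:26223928-26224227 on the plus strand. The H1-3 window is chr6:26234938-26235237 on the minus strand.
H2AC8: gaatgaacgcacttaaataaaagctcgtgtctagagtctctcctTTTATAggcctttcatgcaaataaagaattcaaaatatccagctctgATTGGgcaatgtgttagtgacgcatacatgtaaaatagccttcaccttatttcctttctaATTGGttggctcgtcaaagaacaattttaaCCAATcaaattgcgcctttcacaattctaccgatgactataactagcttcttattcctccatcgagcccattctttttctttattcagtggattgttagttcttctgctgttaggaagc
H3C6: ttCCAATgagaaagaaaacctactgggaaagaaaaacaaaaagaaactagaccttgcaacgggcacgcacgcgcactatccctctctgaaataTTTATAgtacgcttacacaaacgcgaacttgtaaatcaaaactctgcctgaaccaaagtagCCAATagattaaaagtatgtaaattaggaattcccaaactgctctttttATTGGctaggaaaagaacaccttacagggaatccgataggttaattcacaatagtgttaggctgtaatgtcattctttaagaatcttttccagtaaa
H1-3: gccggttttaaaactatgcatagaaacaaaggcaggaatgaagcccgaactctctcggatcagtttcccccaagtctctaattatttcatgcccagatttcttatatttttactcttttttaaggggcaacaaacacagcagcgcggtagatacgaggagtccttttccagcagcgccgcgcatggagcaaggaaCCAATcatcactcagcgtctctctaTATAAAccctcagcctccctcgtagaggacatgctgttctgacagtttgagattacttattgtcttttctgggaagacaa

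Gene counts per library ranged from 29234022 to 50554080, and 6.80% to 16.26% of reads had several alignments and were not counted. Clone A1 replicate A stood apart: across genes, which are not independent, its log2 levels correlated with those of the other libraries at 0.899 to 0.928, against 0.947 to 0.970 among the 28 other pairs. NCBP2 checked the labels, at 298.9, 348.4 and 304.7 CPM (the count relative to the TMM-scaled library size) in clone A1, 796.3, 1035 and 456.2 for clone A4, and 98.4, 90.6 and 98.3 for the vector clones. Of 10 osteoblast lineage markers, RUNX2 lay between 182.4 and 294.0 CPM and SPARC between 1398 and 2250, whereas IBSP had no count, and BGLAP and SP7 at most 1. The 5 epithelial markers, mainly KRT8 and KRT18, summed to 79.3 to 150.0 CPM in clone A1, 75.4 to 103.9 in clone A4 and 120.0 to 215.3 in vector, and their part in any histone difference was not tested. The 3 blood markers summed to at most 2.01 CPM. TERT, the telomerase gene that U2-OS is known not to use, had no count.

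Of the 67 genes, 39 had enough counts to be tested (3 H1, 11 H2A, 11 H2B, 4 H3 and 10 H4). Reads of near-identical copies are lost when reads with several alignments are not counted, so the share of 75-base windows that occur once in the genome was computed for each gene. Only the primary chromosomes were searched, so copies on alternate or patch sequences were not seen. The unique share was 100% in 42 genes and under 50% in 10. Of those 10, the H2BC18, H3C13, H4C14, H3C14, H3C15 and H4C15 genes at 1q21 did not reach the count filter, and H2AC13, H2AC14, H4C11 and H4C12 on chromosome 6 did. The levels of these 10 are lower limits at best. Another 6 untested genes share their strand with a second gene in GENCODE 44, where reads can be set aside as ambiguous: H1-6, H3C4, H3C12, H2AC17, H2AC25 and H2BC26.

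The remaining 16 untested genes had at least 50% unique sequence, 15 of them 100%, and no annotated partner on their strand. Among them H2AC1 and H2BC1, which are known as testis histones, had 0 and 29 counts over the 9 libraries. Most of the others lay in 2 unbroken runs on chromosome 6. The first run, from 26234212 to 26273412 (39.2 kb, GRCh38), holds H1-3, H4C6, H4C7, H3C7, H2BC9, H3C8 and H2BC10. All 7 are fully unique on the primary chromosomes, and 6 have the stem-loop. The 7 genes had 6 counts in all over 9 libraries, with 60 of 63 values at 0. Whether the reference used for alignment held further copies of either run is not known. The next gene, H4C8, lies 4.2 kb further and had 44532 counts over the 9 libraries. The second run, from 27865317 to 27893891 (28.6 kb), holds H2AC16, H1-5, H3C11, H4C13, H3C12, H2AC17 and H2BC17, with 48 counts in all and at most 16 in 1 library. Its neighbour H2BC15, 9.61 kb before it, had 19929 counts. A count of 0 allows up to 3 counts, which is 0.0585 (vector replicate B) to 0.106 CPM (clone A1 replicate A); like every interval here, this covers counting error only. Both runs were near 0 in all 3 groups. The stem-loop was as frequent in untested genes (26 of 28) as in tested genes (36 of 39). On either strand, TATAAA was present in 12 of 26 promoters of untested genes and 28 of 36 of tested genes. On the gene strand, 32 to 27 bases before the start, it was present in 10 of 26 and 22 of 36. The untested genes here include those with under 50% unique sequence, whose reads are lost.

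**Figure D2:**
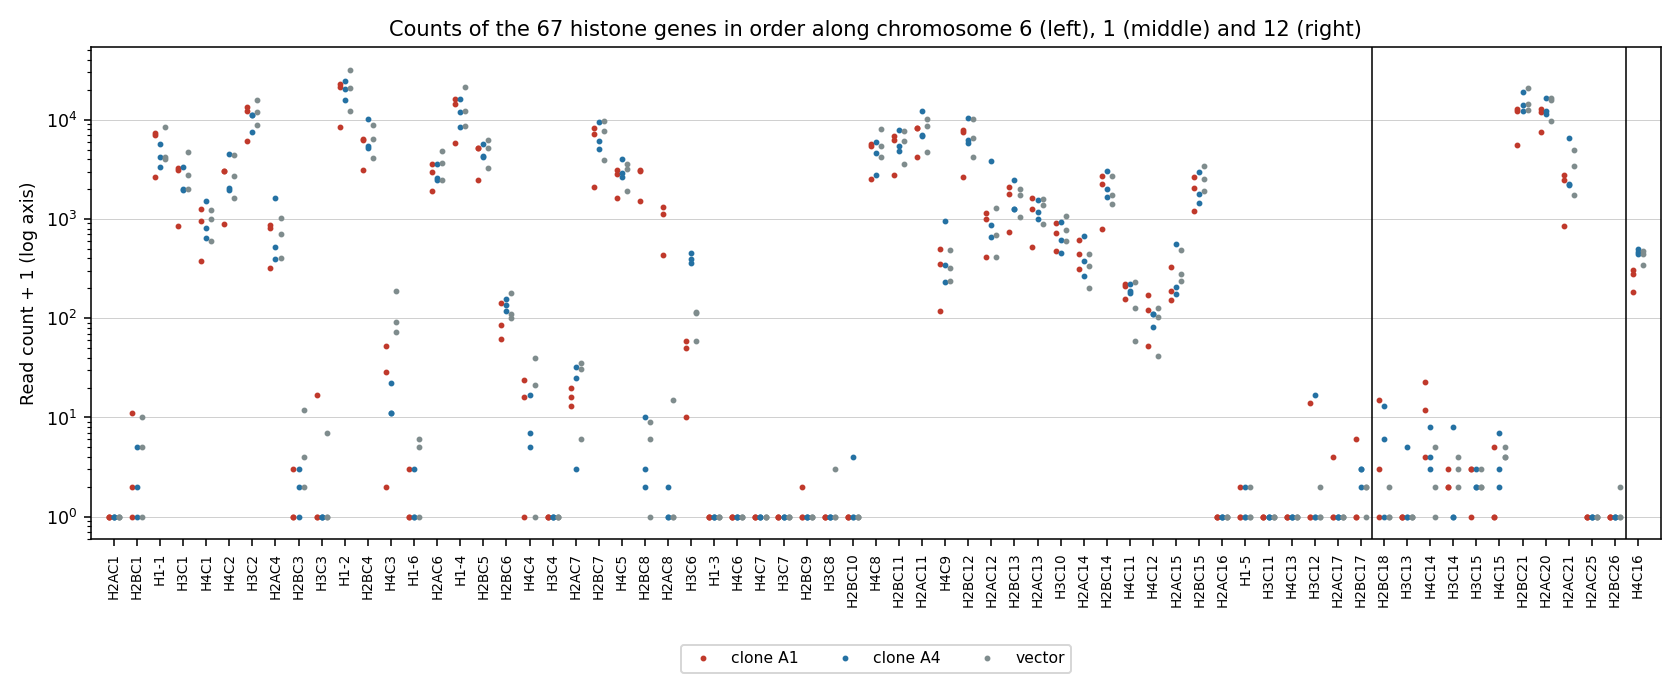
Read counts plus 1 (log axis) of the 67 histone genes in their order along chromosome 6, chromosome 1 and chromosome 12, with 1 point per library coloured by group. The runs from H1-3 to H2BC10 and from H2AC16 to H2BC17 lie near 0 counts in all groups, with H4C8 (44532 counts over the libraries) after the first and H2BC15 (19929) before the second, and H2BC8 and H2AC8 are high in clone A1 only.

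Levels of different genes were compared per kilobase of exon. H1-2 and H1-4, linker histones, had the highest medians of their class, 614.0 and 346.1 CPM per kb over the 9 libraries. For H1-2 the values were 404.6, 835.8 and 691.0 for clone A1, 580.1, 492.4 and 754.4 for clone A4, and 614.0, 849.6 and 406.3 for the vector clones. For H1-4 they were 261.5, 553.4 and 433.5 for clone A1, 224.0, 346.1 and 461.1 for clone A4, and 339.5, 528.8 and 269.8 for the vector clones. In both genes the values of the 3 groups overlapped, and clone A1 replicate B and vector replicate B were the 2 highest libraries.

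Among H2A genes, H2AC20 at 1q21 led with a median of 571.2 CPM per kb, and H2AC11 followed with 375.9. H2AC20 had 534.7, 694.1 and 571.2 for clone A1, 480.6, 761.2 and 557.1 for clone A4, and 684.3, 645.5 and 480.1 for the vector clones, in the order A, B and C that is kept from here on. H2AC11 had 302.4, 447.3 and 396.6 for clone A1, 288.2, 321.8 and 556.6 for clone A4, and 375.9, 400.8 and 234.9 for the vector clones. Again the groups overlapped, and the highest library differed, clone A4 replicate B for H2AC20 and clone A4 replicate C for H2AC11. Of the H2AC20 windows 82.1% are unique. Counted per kb of unique windows, which also leaves out the end of each exon, its median was 817.8 and that of H2AC11, which is fully unique, 442.2.

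Among H2B genes, H2BC7 and H2BC12 led with medians of 352.9 and 285.6 CPM per kb. H2BC7 had 156.5, 403.7 and 410.0 for clone A1, 268.0, 240.8 and 446.6 for clone A4, and 352.9, 396.7 and 203.1 for the vector clones. H2BC12, of which 61.0% is unique (a median of 550.1 CPM per kb of unique windows), had 188.8, 425.8 and 358.9 for clone A1, 266.0, 266.0 and 465.3 for clone A4, and 285.6, 396.6 and 207.6 for the vector clones. Per kb of unique windows the order turned, with 418.4 for H2BC7. H2BC21 had the highest H2B level not divided by length (a median of 308.5 CPM, against 166.9 for H2BC7) but an exon model of 2224 bases, so its place also rests on the annotated length. In H2BC7 and H2BC12 clone A1 replicate A was the lowest and clone A4 replicate C the highest of the 9 libraries, and the groups overlapped.

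H3C2 and H3C1 led the H3 genes by counted reads, with medians of 494.4 and 118.9 CPM per kb. H3C13, with 37.0% unique windows, and H3C14 and H3C15, with 0%, could not be ranked. H3C2 had 418.3, 704.4 and 563.0 for clone A1, 307.1, 494.4 and 488.7 for clone A4, and 508.7, 597.6 and 417.0 for the vector clones. H3C1 had 58.95, 165.0 and 150.9 for clone A1, 81.24, 89.07 and 145.4 for clone A4, and 118.9, 182.9 and 96.05 for the vector clones. Both H3 genes overlapped between groups. Among H4 genes, H4C5 and H4C2 led with medians of 160.1 and 150.5 CPM per kb. H4C8 had the higher level not divided by length (a median of 118.3 CPM, against 65.95 for H4C5) but an exon model of 2163 bases, so this order rests on the annotated length. H4C14 and H4C15, with 0% unique windows, could not be ranked, and H4C11 and H4C12 have under 50% unique sequence. H4C5 had 137.4, 201.9 and 160.1 for clone A1, 133.2, 160.1 and 217.0 for clone A4, and 167.6, 170.8 and 112.0 for the vector clones. H4C2 had 79.91, 211.0 and 184.0 for clone A1, 111.7, 115.0 and 258.4 for clone A4, and 150.5, 222.3 and 102.1 for the vector clones, so its range within each group was wider than any difference between group means.

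The histone genes together made up 2462, 4373 and 3839 CPM in clone A1, 2552, 3012 and 4339 for clone A4, and 3314, 4193 and 2499 for the vector clones. The means were 3558 ± 986 (SD, n = 3), 3301 ± 928 (SD, n = 3) and 3335 ± 847 (SD, n = 3), so the group means differed by less than the SD within any group. The lowest and the highest library of each group lay further apart than any 2 group means. The highest library was 1.78 times the lowest, with the summed level not divided by length. In bulk RNA, fewer cells in S phase and less histone mRNA per cell cannot be told apart. The lowest library, clone A1 replicate A, is also the one that stood apart from the others. The part of technical differences between libraries in this spread was not tested.

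All 5 classes took part in this spread between libraries. H1 ranged from 594.5 to 1236 CPM, H2A from 509.5 to 960.6, H2B from 809.6 to 1588, H3 from 215.9 to 464.0 and H4 from 197.5 to 394.6, ratios of 1.89 to 2.15. The makeup was steadier than the level. H1 was 24.0% to 28.7% of the summed histone CPM, H2A 19.1% to 23.9%, H2B 32.9% to 36.6%, H3 8.12% to 11.1% and H4 7.74% to 9.10%. The chromosome 6 genes made up 74.8% to 83.0% of the sum and the 1q21 genes 16.8% to 24.9%. These class and cluster shares cover counted reads only. Reads were lost for 6 of the 9 genes at 1q21, H3 and H4 genes among them, which have under 50% unique sequence. H2AC18 and H2AC19 are not included. H4C16 on chromosome 12 held 0.172% to 0.384%, and the 2 genes at 1q42, H2AC25 and H2BC26, had 1 count over the 9 libraries.

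**Figure D3:**
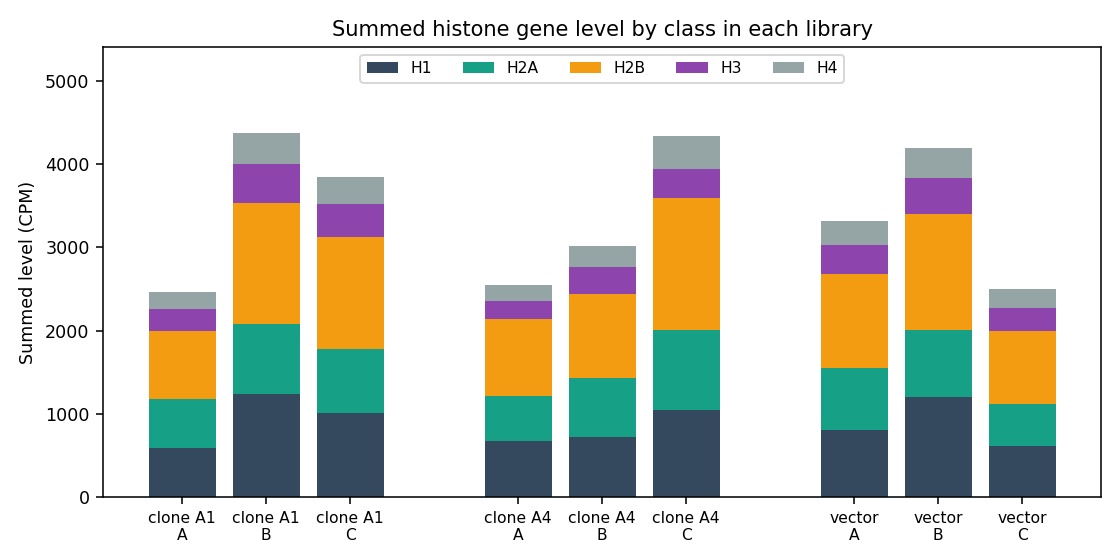
Summed level in CPM of the H1, H2A, H2B, H3 and H4 genes (stacked bars) in each of the 9 libraries. The total lies between 2462 and 4373 CPM, every group has a low and a high library, and the classes keep similar proportions.

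Most of the tested genes were steadier relative to the family than alone. Relative to the summed level of the other histone genes, the SD of the log2 level (CPM plus 0.5) over the 9 libraries was smaller than the SD of the level itself in 33 of 39 genes, with a median of 0.259 against 0.456. Among the 33, the 2 SDs lay close together for H4C3 (0.909 against 0.994), H2AC8 (2.72 against 2.78) and H2BC8 (3.42 against 3.44). The same measure was not computed for genes outside the family, so whether the 33 stand out from other genes was not tested. H2BC5 was the steadiest, with a relative SD of 0.0999, followed by H2BC11 with 0.112. The 6 genes that were no steadier relative to the family were H2AC20, H2BC6, H4C16, H4C4, H2AC7 and H3C6. For 3 genes the relative SD was above 1: H3C6 (1.41), H2AC8 (2.72) and H2BC8 (3.42).

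Neighbouring genes with a shared promoter region were compared in the same way. In 14 pairs a minus-strand and a plus-strand gene start within 1000 bases of each other. In 9 pairs both genes were tested, in 5 neither was, and in none only 1, with H2BC17 counted in 2 of the pairs. The log2 ratio within a tested pair had a SD of 0.128 (H2BC11 with H2AC11) to 0.829 (H2AC7 with H2BC7) over the libraries, with a median of 0.345. The pair H2BC8 and H2AC8 is among the 9 only through clone A1, in which both genes passed the count filter. Its SD of 0.74 sets clone A1 against libraries with few or no counts of either gene. H2BC7 had 59192 counts in all and its partner H2AC7 only 172, but H2AC7 overlaps ENSG00000282988 on the same strand, so its level is uncertain.

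In the comparison of the 6 NCBP2 libraries with the 3 vector libraries, no histone gene passed the test. The 6 libraries come from 2 clones but were tested as separate replicates. By edgeR's quasi-likelihood test with Benjamini-Hochberg adjustment over 21682 genes, 0 of 39 tested histone genes passed an adjusted p of 0.05, 3 had an unadjusted p under 0.05, and DESeq2 called 1, H2BC8. Of all tested genes 4 were called by edgeR (0.0184%), 5.71% had an unadjusted p under 0.05 and 0.498% were called by DESeq2. The median log2 fold change was 0.055 for the histone genes and 0.024 for all genes, and 25 of 39 were above 0. The 2 groups did not overlap for 1 of the 39 (2.56%), H4C3, against 3.74% of all genes.

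The clones were then set against the vector libraries one at a time, and these comparisons share their controls. In clone A1, 2 of 39 histone genes rose (H2BC8 and H2AC8) and none fell, with a background of 0.0646% called. In clone A4, edgeR called 0 of 39, with 2 at an unadjusted p under 0.05, and DESeq2 called 2 (H3C6 and H4C3). Of all genes, edgeR called 0.115%, 5.25% had an unadjusted p under 0.05 and DESeq2 called 0.853%, so the unadjusted count was at the background. Between clone A4 and clone A1, 2 were called, H2BC8 and H2AC8, both lower in clone A4, with a background of 0.161%. In clone A1 against vector and between the clones, 4 and 4 of the 39 had an unadjusted p under 0.05 (all genes 7.51% and 6.63%), and DESeq2 called 2 and 3 (all genes 1.26% and 1.13%). H2BC8 and H2AC8 passed the count filter only through clone A1, so these shares of tested genes are no evidence about the family. Median log2 fold changes of the 39 genes were 0.126 (clone A1), 0.0040 (clone A4) and -0.080 (clone A4 against clone A1), beside -0.017, 0.030 and 0.035 for all genes. Groups did not overlap for 6 (15.4%), 3 (7.69%) and 5 (12.8%) of the 39, against 14.2%, 12.1% and 13.6% of all genes, so these shares lay near or below the background.

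**Figure D4:**
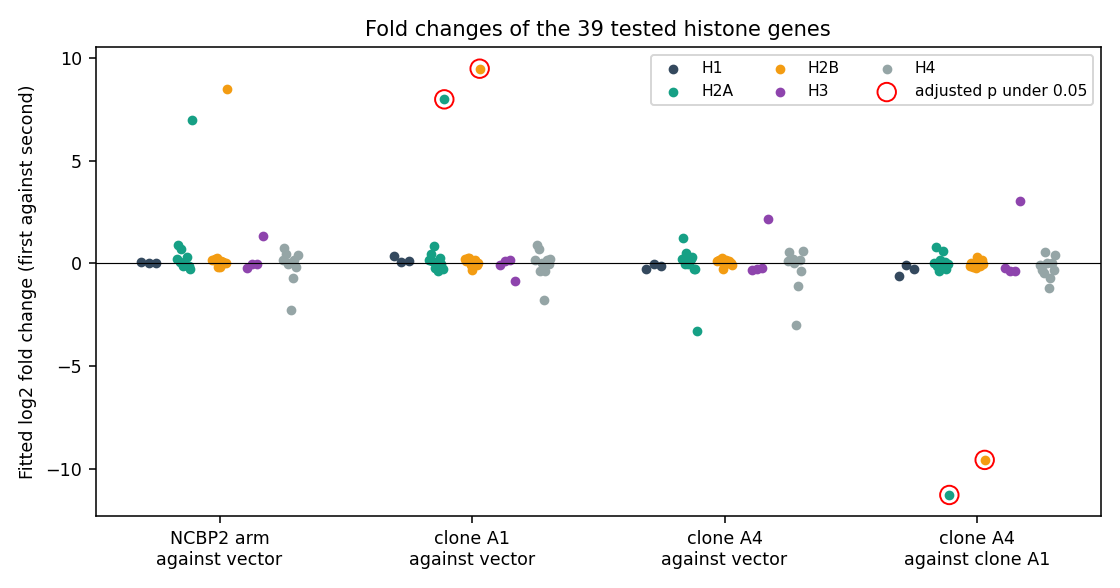
Fitted log2 fold change of the 39 tested histone genes in each of 4 comparisons, as points coloured by class; red rings mark an adjusted p under 0.05. Most points lie near 0 in every comparison, and H2BC8 and H2AC8 are ringed for clone A1 against vector (9.47 and 7.98) and for clone A4 against clone A1 (-9.56 and -11.27).

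H2BC8 and H2AC8 encode an H2B and an H2A and lie back to back on chromosome 6, H2BC8 at 26216200 to 26216688 on the minus strand and H2AC8 at 26216921 to 26217437 on the plus strand, with starts 233 bases apart (GRCh38). H2BC8 had 1528, 3022 and 3077 counts in clone A1, 2, 9 and 1 for clone A4, and 0, 5 and 8 for the vector clones. As levels, the clone A1 libraries had 53.8, 81.3 and 72.3 CPM, a mean of 69.1 ± 14.02 (SD, n = 3), against 0.0897 ± 0.10 (SD, n = 3) in clone A4 and 0.0976 ± 0.0976 (SD, n = 3) in the vector libraries. All 3 clone A1 libraries were far above the 6 others, which did not separate from each other.

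H2AC8, its divergent partner, had 433, 1116 and 1313 counts in clone A1, 0, 0 and 1 for clone A4, and 0, 14 and 0 for the vector clones. That is 25.4 ± 8.79 CPM (SD, n = 3) in clone A1, and the 14 counts of vector replicate B are 0.273 CPM. The sequence of both genes was fully unique in windows of 75 bases, and neither shares its strand with another gene, so reads of other histone genes had no identical 75-base stretch to align to. Per kilobase, H2BC8 was 3.73, 2.86 and 2.48 times H2AC8 in the 3 clone A1 libraries. In clone A1, H2BC8 made up 6.64%, 5.58% and 5.35% of all H2B counts scaled to CPM and H2AC8 2.59%, 3.55% and 4.06% of those of H2A.

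For clone A1 against vector, edgeR's fitted log2 fold change was 9.47 (SE 0.652) for H2BC8, with an adjusted p of 9.4e-05, and 7.98 (SE 0.853) for H2AC8, with an adjusted p of 0.00448. Without clone A1 replicate A, the library that stood apart, the values were 9.63 (adjusted p 2.69e-04) and 8.24 (adjusted p 0.0125). Without vector replicate B the other 2 vector libraries had no H2AC8 count, and the fitted value of 13.04 is then no bound. Without vector replicate C, which held 8 of the 13 vector counts of H2BC8, its value was 10.31, and with counts taken without regard to strand it was 8.87. Summed over libraries, H2BC8 was 751 times (95% interval 439 to 1410, exact, counting error only) and H2AC8 262 times (156 to 479) the vector level in clone A1.

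The difference between the clones was tested directly. By edgeR, clone A4 was lower than clone A1 by a log2 fold change of -9.56 (SE 0.657) for H2BC8, with an adjusted p of 4.55e-05. For H2AC8 it was -11.27 (SE 1.1), with an edgeR adjusted p of 9.74e-04, a value fitted to 1 count in clone A4 that depends on the prior count. The count ratio of clone A1 to clone A4 was 801 (458 to 1550) for H2BC8 and 3610 (647 to 143000) for H2AC8. Of the 12 H2BC8 counts in clone A4, 9 came from replicate B, and without it the log2 fold change was -10.94. Without clone A4 replicate C, which held the 1 H2AC8 count, the fitted value for H2AC8 was -13.07 and is no bound. NCBP2 itself was lower in clone A1 than in clone A4 in every library. Against vector, clone A4 showed neither gene raised, with fewer than 10 counts of either in each library.

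**Figure D5:**
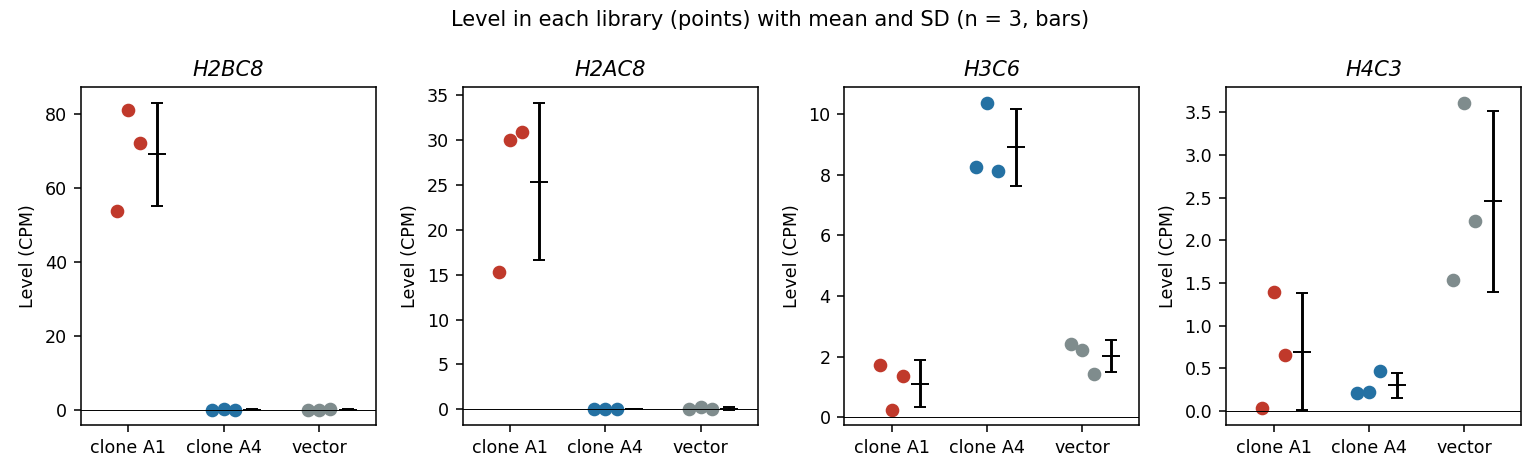
Level in CPM of H2BC8, H2AC8, H3C6 and H4C3 in each library (points, by group), with the mean and SD of 3 libraries (black bars). H2BC8 and H2AC8 are high in the 3 clone A1 libraries only, H3C6 is highest in the 3 clone A4 libraries and H4C3 is highest in the 3 vector libraries.

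H3C6, the next histone gene 6.76 kb beyond H2AC8, gave the opposite order of clones. It had 49, 9 and 58 counts in clone A1, 393, 456 and 362 for clone A4, and 111, 114 and 58 for the vector clones, which is 1.72, 0.242 and 1.36 CPM for clone A1, 8.24, 10.4 and 8.11 for clone A4, and 2.40, 2.22 and 1.42 for vector. All 3 clone A4 libraries lay above the other 6. The log2 fold change was 2.14 (SE 0.526) against vector, with an edgeR adjusted p of 0.298, and 3.01 (SE 0.552) against clone A1, with an edgeR adjusted p of 0.0698, so neither passed. Over the alternative settings the adjusted p ranged from 6e-04 to 0.944 against vector and from 6.14e-08 to 0.254 against clone A1. H3C6 made up 3.82%, 3.22% and 2.30% of the H3 level in clone A4 and 0.0522% to 0.708% in the other libraries.

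H4C3 is an H4 gene with few counts in these cells. It had 1, 52 and 28 counts in clone A1, 10, 10 and 21 for clone A4, and 71, 185 and 91 for the vector clones. The 3 vector libraries, at 1.54, 3.61 and 2.22 CPM, lay above all 6 NCBP2 libraries, whose highest was 1.40 CPM in clone A1 replicate B. The log2 fold change of the NCBP2 arm was -2.29 (SE 0.704), with an edgeR adjusted p of 0.552, and did not pass. It was -1.80 (SE 0.829) in clone A1 and -3.01 (SE 0.876) in clone A4, with edgeR adjusted p-values of 0.666 and 0.473.

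The other genes with the smallest p-values in a comparison are given as values, since none passed. H2AC12, an H2A gene whose partner is H2BC12, had 14.6, 26.9 and 27.2 CPM in clone A1, 18.1, 14.9 and 86.1 for clone A4, and 14.9, 25 and 10.2 for the vector clones. A single library, clone A4 replicate C, was more than 3 times any other. H2AC14 had 10.9, 16.4 and 10.4 CPM in clone A1, 5.50, 8.46 and 15.1 for clone A4, and 7.30, 8.59 and 4.86 for the vector clones. H4C11 had 5.42, 5.65 and 5.13 CPM in clone A1, 3.90, 4.03 and 4.90 for clone A4, and 2.71, 4.51 and 1.42 for the vector clones. H2AC14 and H4C11 both lay above vector in all clone A1 libraries, and 35.8% and 8.6% of their windows are unique.

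H1-1, a linker histone, had 92.9, 189.1 and 170.5 CPM in clone A1, 69.1, 94.7 and 128.5 for clone A4, and 87.2, 165.3 and 103.3 for the vector clones, and the groups overlapped. H4C16 was the single histone gene outside the clusters of chromosomes 6 and 1; its SD over the libraries, 0.244 on the log2 scale, was 0.41 relative to the family. Its level was 6.44, 7.53 and 7.24 CPM in clone A1, 9.80, 11.2 and 9.99 for clone A4, and 9.49, 9.31 and 8.34 for the vector clones. The 3 groups did not overlap, clone A1 being lowest and clone A4 highest, and the log2 difference between the clones was 0.55 (SE 0.229), with an edgeR adjusted p of 0.683.

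Counts on the opposite strand were looked at because histone genes lie close together. Among the 39 histone genes with at least 100 counts on either strand, a median of 1.76% of counts lay on the opposite strand, and 1 gene was above 25%. That gene was H4C9, with 3538 counts on its own strand over the 9 libraries and 15219 (81.1%) on the other. The opposite-strand counts were 1256, 2288 and 2254 for clone A1, 1315, 1334 and 987 for clone A4, and 1745, 3008 and 1032 for the vector clones. They were above the own-strand counts of H4C9 in each library, and GENCODE 44 has no gene on that strand there. Without regard to strand, most counts of H4C9 would be those of the other strand.

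Genes that transcribe or process histone mRNAs were counted as a list. Of 25 such genes (among them NPAT, which activates histone transcription, SLBP, and the U7 particle proteins LSM10 and LSM11), edgeR called 1 in clone A1 and 1 in clone A4 against vector, in both cases the overexpressed NCBP2 itself. In the NCBP2 arm and between the clones it called 0, with 1 at an unadjusted p under 0.05 and 1 by DESeq2 in each. The median log2 fold change of the list was 0.065 in clone A1 and 0.025 in clone A4. SLBP ranged from 41.1 to 58.0 CPM and NPAT from 47.5 to 151.1 CPM over the 9 libraries, with NPAT lowest in vector replicate B and clone A4 replicate B. This was not particular to NPAT: CASP8AP2 of this list and the mitotic genes CENPE and CENPF were also lowest in these libraries. SLBP was highest in clone A4 replicate B.

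Of 25 S-phase genes and 15 genes of G2 and mitosis, edgeR called 0 in each of the 4 comparisons, and DESeq2 also 0. The S-phase list had 1, 1, 1 and 2 genes at an unadjusted p under 0.05 in the NCBP2 arm, clone A1, clone A4 and between the clones, and the mitotic list 0, 0, 0 and 2, beside 5.71%, 7.51%, 5.25% and 6.63% of all genes. The summed S-phase level was 2594, 2872 and 3445 CPM in clone A1, 2324, 2756 and 2773 for clone A4, and 2769, 2957 and 2914 for the vector clones. The histone sum was highest in clone A1 replicate B and the S-phase sum in clone A1 replicate C, and the part of cell cycle in the histone spread was not tested.

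Histones that are made outside S phase, the replacement histones, were 11 matched genes of 13 listed, such as H2AZ1 and H3-3B. Their summed level ranged from 1919 (clone A4 replicate A) to 2572 CPM (vector replicate B), and edgeR and DESeq2 called 0 in each comparison, with 2, 2, 2 and 0 at an unadjusted p under 0.05. The 28 tested genes that lie among the chromosome 6 histone genes without being histones or pseudogenes summed to 187.5 to 261.5 CPM together with their untested neighbours, and edgeR and DESeq2 called 0 of them in each comparison. In clone A1 against vector 1 of the 28 had an unadjusted p under 0.05, and in the other comparisons 0. Of 17 histone pseudogenes, 2 were tested and edgeR called neither, while DESeq2 called 1 in clone A4 against vector.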

How the data were processed

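The deposited tables hold raw read counts per gene, as whole numbers, in 3 columns: without regard to strand, and for each strand. The submitters' processing notes name STAR 2.7.1a and GRCh38. The role of each and the annotation are not given in the sources used here. Column 3 held most stranded counts and was used. The 4 lines that name no gene (44.5% to 63.6% of reads) were left out. Identifiers were matched without version to GENCODE 44 (60295 of 60609).

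Genes passing filterByExpr were tested with edgeR 4.0.16 (quasi-likelihood, robust, TMM, R 4.3.3), in a fit with 2 groups and one with 3, with Benjamini-Hochberg adjustment over all 21682 genes. DESeq2 1.42.0 and other settings were alternatives. The common coefficient of variation was 0.411. The SE of a log2 fold change was its absolute value divided by the square root of the quasi-likelihood F statistic. For genes with few or no counts in a group, such as H2BC8 and H2AC8, this SE is only a rough guide. In data simulated for clone A1 against vector (20427 genes), log2 changes of 4 were called in 50 of 51 genes when up and 40 of 47 when down, and changes of 2 in 37 of 53 and 18 of 32. The simulation gave genes of similar level a similar spread and held no outlying library. It may therefore overstate how often such changes are called in the real data. No libraries agreed within sampling noise (lowest chi-square per degree of freedom 29.76 within a group). Members, gene lists and the naming rule (genes called, the 2 most abundant of each class per kb, the 5 smallest p in each comparison, genes outside chromosomes 6 and 1, and divergent partners of called genes) were chosen with earlier results of these data known.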

Additional observations from a re-analysis of the deposited data

Results flagged for a closer look

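H2BC8 and H2AC8 differed between the 2 NCBP2 clones: the log2 difference from vector in clone A4 minus that in clone A1, tested as a contrast by edgeR, was -9.56 for H2BC8 and -11.27 for H2AC8 (adjusted p 4.55e-05 and 9.74e-04), with both genes higher in clone A1 in 3 of 3 libraries.

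H2AC12 had 86.05 CPM in clone A4 replicate C, and its gap to the next of the 6 NCBP2 libraries was 0.823 of their range, above Dixon's critical value of 0.625. It was 1 of 19 histone genes examined in this way, and was among them for a small p in these same data. Chance marks about 1 in 20 groups of 6 values from a single normal population. These 6 values come from 2 clones, so that rate is only a rough guide.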

How the results depend on the processing

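H2BC8 and H2AC8 were called in clone A1 against vector and in clone A4 against clone A1 under each of the 15 alternatives to each comparison, with the same direction. Their highest adjusted p-values were 0.003 and 0.0493 for clone A1 against vector (both with only the 6 libraries compared) and 8.47e-04 and 0.0203 between the clones. For the NCBP2 arm, DESeq2 called 1 histone gene (H2BC8) and the other alternatives 0. For clone A4 against vector the count of histone genes was 2 with DESeq2, 3 without a filter on low counts (H2AC12, H3C6 and H4C3) and 1 with only the 6 libraries compared (H3C6), and 0 otherwise; the cause was not tested. H3C6 between the clones passed with DESeq2, without the filter and without vector replicate B (adjusted p 0.0445).

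The number of all genes called varied more: 4 for the NCBP2 arm (0 to 108 over the alternatives), 14 for clone A1 (3 to 312), 25 for clone A4 (7 to 185) and 35 between the clones (10 to 246). The highest count came from DESeq2 except in clone A1, where it came from no filter. The letters A, B and C may not pair libraries: deviations of same-letter libraries correlated at -0.1 to 0.18. With the library letter as a replicate block, the counts of histone genes called were 0, 2, 0 and 2, as without it, and those of all genes 13, 38, 53 and 51. Summed levels of all members, classes and clusters moved by less than their SD with other scalings or without regard to strand. The sum of all members also did so without H2AC8 and H2BC8, an alternative chosen after seeing the data. Per kb of unique windows, H4C5, H2AC14 and H4C11 reached 195.1, 59.63 and 167.0 CPM. For genes with 0 counts, the floors given above follow from depth. They hold only if no reads were set aside as ambiguous or as having several alignments. The annotation used for counting is not given, nor whether the reference held alternate sequences, so this was not tested.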
